A study of Homo sapiens with 8 samples.

Results

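The kinesin genes were examined for binding by the RNA-binding proteins PTBP1 and IGF2BP2, with peak lists from A172, an established cell line of human glioma. A peak belonged to a kinesin when the gene named beside it in the lists had a symbol of the form KIF or KIFC followed by its number and letter. This gave 40 genes of the 19767 named in the lists, and 5258 of 1843422 peaks. Binding was measured by eCLIP (enhanced crosslinking and immunoprecipitation), in which a protein is crosslinked to RNA, pulled down with the RNA and the RNA is sequenced. PTBP1 (PTB in the labels) regulates splicing through pyrimidine-rich tracts. IGF2BP2, which the labels call IMP2, binds mature mRNAs and bears on their stability and translation. Each protein had 2 libraries of immunoprecipitated RNA (IP) and 2 input libraries from cells of the same line, all given 4-thiouridine (500 µM, 3 h) and UV light of 365 nm. No genotype or drug differed between the groups, and the proteins differed also in the gel piece taken (55 to 130 kDa for PTBP1, 65 to 140 kDa for IGF2BP2). The input libraries enter only as the divisor of the deposited ratios and are otherwise not analysed here. The labels say that the experiments were repeated but not from which cultures, so p-values speak only of the spread among these libraries, which may be technical.

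Kinesins are motor proteins that use ATP to move along microtubules or to take their ends apart. Most carry vesicles, organelles and RNA-protein particles toward the plus end, while the KIFC members walk toward the minus end. Others build the mitotic spindle, complete cytokinesis or work in cilia, and kinesin transcripts are often long and spliced from many exons, so they offer both introns and mature mRNA to RNA-binding proteins.

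The sites where letters could be read show what kind of sequence lay under kinesin peaks. No genome was used, so letters were read only for 23 sense-strand kinesin peaks, in 14 genes, that overlap a start-site window of any RefSeq gene (GRCh38.p14) by 15 to 30 bases, and only that overlap is shown. The 4 below were chosen after their values and letters were seen, the first for its C and T content, the others for their ratio of IP to input. Each is written 5′ to 3′ on the strand of the peak, with the longest run of C and T in capitals.
KIF26B intron, PTBP1, chr1:245698859-245698881, plus strand: CCCTTTCTCCTCTCTgtctgtgt
KIF13A coding sequence, PTBP1, chr6:17850323-17850349, minus strand: cagacaCTTTatgacctgcagtctggg
KIF4B 5′ UTR, IGF2BP2, chr5:155013769-155013789, plus strand: gcggttaaagCTCCggctggg
KIF22 intron, IGF2BP2, chr16:29790946-29790962, plus strand: gggCggggagaggggga

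The KIF26B stretch had C or T at 87.0% of its bases, with a run of 15. Of 913016 stretches of 23 bases cut from all RefSeq start-site windows on both strands, 0.549% held a run of C and T as long. For the other stretches, at their own lengths, this share was 67.0% (KIF13A), 58.1% (KIF4B) and 99.9% (KIF22). The KIF26B stretch was picked out of 23 for its letters, so its low share is no evidence about PTBP1 peaks. It carried 4 IP reads to 1 input read in each PTBP1 replicate and no IGF2BP2 peak, so it was found again but was covered by few reads. The KIF13A stretch carried 18 IP reads to 1 input read in PTBP1 replicate 1 and had no peak in replicate 2. The KIF4B stretch carried 6 and 9 IP reads to 1 input read in the IGF2BP2 replicates. The KIF22 stretch, with G at 76.5% of its bases, carried 4 reads to 2 in IGF2BP2 replicate 1 and 8 to 3 in replicate 2. A run of letters is a description of the window and does not mark a binding site.

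Nearly all kinesin genes held peaks of both proteins, with more in the PTBP1 lists. Every listed peak was counted, here and in the shares and densities below. Of the kinesin peaks, 22.8% and 17.7% in the PTBP1 replicates and 14.2% and 12.6% in the IGF2BP2 replicates had a deposited −log10 p of 0. A listed peak is thus not always enriched over input. PTBP1 replicates 1 and 2 held 1796 and 1620 kinesin peaks in 39 and 40 genes, and IGF2BP2 replicates 1 and 2 held 922 and 920 in 38 and 39 genes. A total of 38 genes had peaks in all 4 lists. The whole lists held 600615 and 538802 peaks for PTBP1 and 362700 and 341305 for IGF2BP2. As a share of its list, kinesins took 0.30% ± 0.001 (SD, n = 2) in PTBP1 and 0.262% ± 0.011 (SD, n = 2) in IGF2BP2. The 2 PTBP1 shares lay above both IGF2BP2 shares, with p = 0.33 in a two-sided exact permutation test, the smallest that 2 libraries against 2 allow. That limit holds for each exact test below.

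The reads behind these peaks were few, and fewer for IGF2BP2. Where reads could be recovered from the deposited values, the median kinesin peak had 10 and 7 IP reads in the PTBP1 replicates and 4 in both IGF2BP2 replicates. Peaks of exactly 3 IP reads, the lowest number found, made up 15.1% and 19.9% of those in PTBP1 and 40.2% and 43.8% in IGF2BP2. At least 10 IP reads were found in 685 and 544 kinesin peaks of PTBP1 and in 72 and 60 of IGF2BP2. Of the peaks of PTBP1 replicates 1 and 2, 52.3% (95% Wilson interval 50.0% to 54.6%) and 57.0% (54.6% to 59.4%) overlapped a peak of the other replicate by at least 1 nt. For IGF2BP2 these shares were 44.7% (41.5% to 47.9%) and 44.5% (41.3% to 47.7%). Among peaks of at least 10 IP reads the 4 shares were 78.2%, 84.4%, 77.8% and 80.0%. Intervals here and below cover counting error only.

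Peaks were unevenly spread over the family. The 5 genes with the most peaks held 34.4% of them. KIF26B, a kinesin-11 member without motor activity of the usual kind, had 231 and 192 PTBP1 peaks and 69 and 86 IGF2BP2 peaks. KIFC3, a minus-end motor found at cell junctions, had 110 and 93 against 83 and 87. KIF5C, a heavy chain of conventional kinesin, had 121 and 108 against 44 and 34. KIF13A, which moves endosomes, had 100 and 96 against 40 and 42. KIF1C, a vesicle carrier of the kinesin-3 family, had 74 and 72 against 64 and 63. Long genes had more PTBP1 peaks, with a Spearman rho of 0.53 between gene length and PTBP1 peaks and 0.24 between gene length and IGF2BP2 peaks across 40 genes that share the same libraries. Gene length ran from 4.39 to 554 kb.

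**Figure D1:**
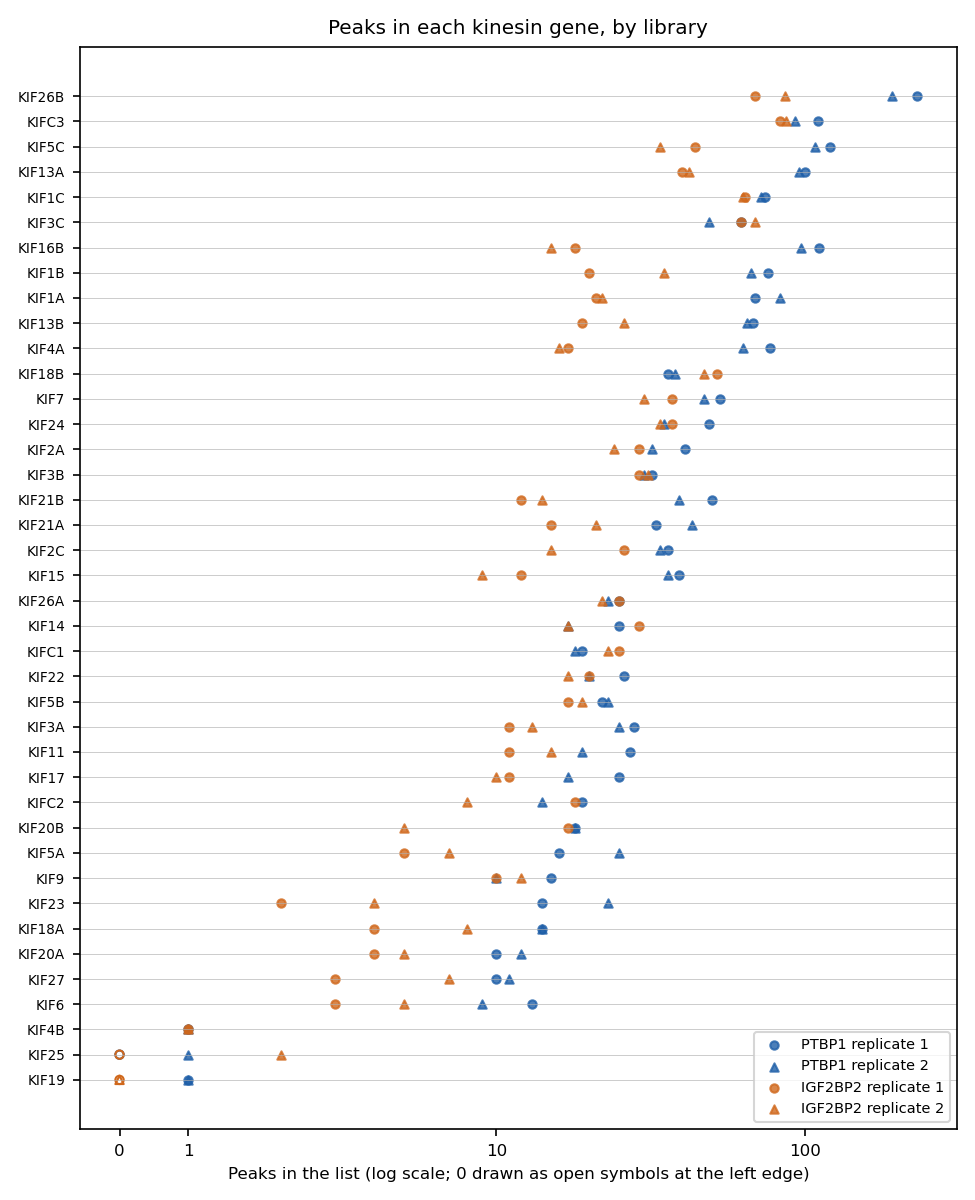
Peaks assigned to each of the 40 kinesin genes in the 4 lists, on a log axis, with circles for replicate 1 and triangles for replicate 2. KIF26B leads with 578 peaks in all, and for most genes the PTBP1 points (blue) lie to the right of the IGF2BP2 points (orange).

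At the low end, KIF19, a ciliary kinesin, had 1 peak in each PTBP1 list and none in IGF2BP2. KIF25 had 1 peak in PTBP1 replicate 2 and 2 in IGF2BP2 replicate 2, and KIF4B had 1 in each list. These 3 had under 10 peaks in all and were not tested for density. KIF12, KIF2B and KIF28P, kinesin names known outside these lists, had no peak in any library. Peaks depend on the amount of RNA as well as on binding, and fewer transcripts and less binding per transcript cannot be told apart here. Of 7 astroglial and mesenchymal markers, 5 had peaks. NES had 13 and 16 PTBP1 and 19 and 23 IGF2BP2 peaks (-1.21 in the density measure below, limma adjusted p = 0.0224) and OLIG2 5 and 2 against 11 and 6 (-1.91, limma adjusted p = 0.0451). The others did not pass. CD44 had 101 and 108 PTBP1 and 85 and 69 IGF2BP2 peaks and VIM 29 and 20 against 8 and 8, while SOX2 and S100B had none in any list and GFAP at most 3 in a list. Of 5 markers of other cell types 4 had peaks. KRT5 had no peak and RBFOX3, a neuronal gene, had 183 and 170 against 78 and 59 (0.68, limma adjusted p = 0.0114). PECAM1, an endothelial gene, had 6 and 1 against 8 and 11 (-2.36, limma adjusted p = 0.0490), while CD68 (-1.01) and PTPRC (-0.22) did not pass. Peaks are no measure of expression.

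The proteins differed in where they lay on kinesin transcripts, PTBP1 more in coding sequence and IGF2BP2 more in 3′ UTRs. Coding sequence held 27.2% and 29.0% of the kinesin peaks of PTBP1 and 14.5% and 13.6% of those of IGF2BP2. The PTBP1 mean was 28.1% ± 1.26 (SD, n = 2) and the IGF2BP2 mean 14.1% ± 0.67 (SD, n = 2), which differ by 14.1 percentage points (two-sided exact permutation p = 0.33). The 3′ UTRs held 2.84% and 2.78% of the PTBP1 peaks and 9.0% and 8.70% of the IGF2BP2 peaks, a difference of -6.04 points (exact permutation p = 0.33). Introns held 66.4% ± 1.33 (SD, n = 2) in PTBP1 and 73.6% ± 0.50 (SD, n = 2) in IGF2BP2, which differ by -7.13 points (exact permutation p = 0.33). In each case the replicates of a protein lay closer to each other than to those of the other protein. The 5′ UTRs held 2.49% ± 0.14 (SD, n = 2) in PTBP1 and 3.53% ± 0.39 (SD, n = 2).

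Peaks of all genes served as the background for these shares. Over all peaks assigned to a gene, coding sequence held 14.2% ± 0.20 (SD, n = 2) in PTBP1 and 9.74% ± 0.05 (SD, n = 2) in IGF2BP2. The PTBP1 share of kinesins was thus 13.1 and 14.6 points above that of all genes in the 2 replicates, and the IGF2BP2 share 4.83 and 3.81 points above. In 3′ UTRs, kinesins differed from all genes by -0.50 and -0.71 points for PTBP1, whose shares there were 3.34% and 3.49%, and by 2.02 and 1.5 points for IGF2BP2. Intron shares of kinesins differed from all genes by -11.3 and -12.6 points for PTBP1 and by -5.74 and -4.67 points for IGF2BP2, while over all genes introns held nearly equal shares, 78.4% and 78.8%. All genes here include non-coding ones, which have no coding sequence or UTR, and these gaps to all genes were not tested.

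**Figure D2:**
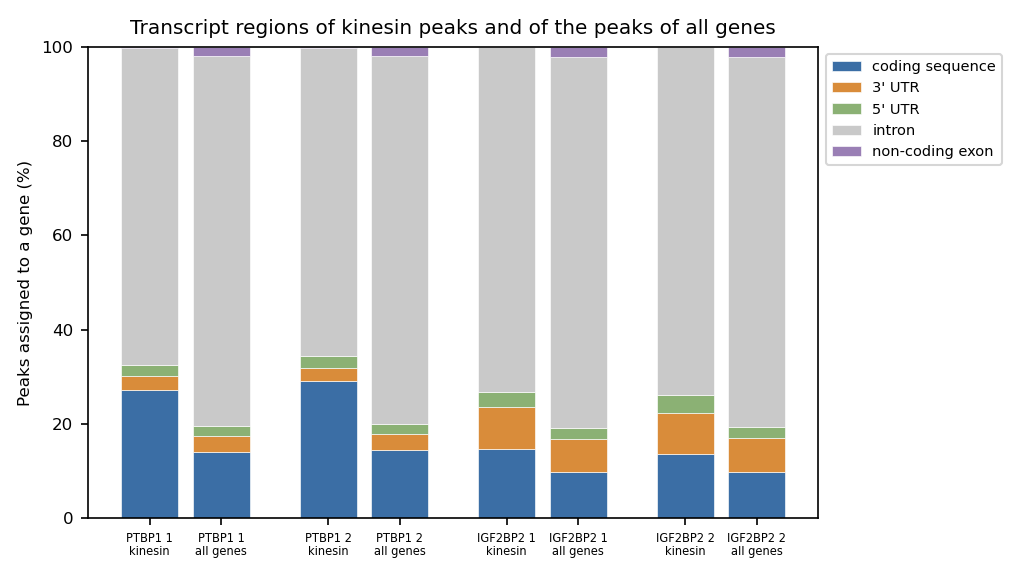
Share of peaks (percent of peaks assigned to a gene) by transcript region, for kinesins and for all genes in each of the 4 libraries. The blue coding-sequence part is tallest in the kinesin bars of PTBP1 (27.2% and 29.0%), and the orange 3′ UTR part is larger in IGF2BP2 (9.0% and 8.70%) than in PTBP1.

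Coding-sequence peaks were spread over many kinesins. A coding-sequence peak was present in both PTBP1 lists for 34 of 40 kinesins and in both IGF2BP2 lists for 20, beside 50.1% and 28.6% of all 19767 genes. Of the 34, 9 (26.5%) had none in either IGF2BP2 list, close to the 27.7% among all genes, and the PTBP1 lists hold more coding-sequence peaks overall. KIF5A, the neuronal heavy chain of conventional kinesin, had 14 and 17 coding-sequence peaks in PTBP1 and 0 in both IGF2BP2 lists. KIF3A, a subunit of the heterotrimeric kinesin-2 that drives transport in cilia, had 12 and 12 against 0 and 0. KIF15, a spindle motor, had 7 and 10 against 0 and 0. In 3′ UTRs 15 kinesins (37.5%) had a peak in both IGF2BP2 lists and 16 (40%) in both PTBP1 lists, beside 22.3% and 21.9% of all genes. Of the 15, 2 (13.3%, beside 17.1% among all genes) had none in either PTBP1 list. The 19767 genes include non-coding genes, which have no coding sequence or UTR, and genes with few peaks. The gaps of kinesins to all genes in the shares with a peak in both lists are thus partly built in, and were not tested. KIF3C, another kinesin-2 subunit, had 10 and 12 3′ UTR peaks in IGF2BP2 and none in PTBP1. KIF3B, the usual partner of KIF3A, had 11 and 8 in IGF2BP2 and 2 and 2 in PTBP1.

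Peak density compared the proteins gene by gene, as the log2 of a gene's peaks (plus 0.5) per 10000 peaks of its list. The PTBP1 lists were longer, so equal peak numbers give a negative difference. Density differed in 16 of 37 kinesins tested (43.2%), against 25.0% of the 15145 genes tested in all (limma, adjusted p under 0.05, 2 libraries each). It was higher in PTBP1 for 10 kinesins, where 12.7% of all genes were called, and higher in IGF2BP2 for 6, where 12.3% were called. The other 21 did not pass. With a minimum of 30 peaks, which all 37 met, 17 passed by limma, beside 36.6% of 10750 genes. Part of the gap to all genes thus goes with peak number. The median difference over the 37 was 0.25, beside -0.01 over all genes. Among peaks of at least 10 IP reads PTBP1 was higher for 16 of 28 kinesins tested and IGF2BP2 for 2. There 50.5% of all genes were called, 34.3% and 16.2% by direction, and the median over all genes moved up by 0.66 to 0.65. That fit says little of direction, since 23 of the 28 reached the minimum of 10 such peaks through PTBP1 alone, and 15 of these were called. No such IGF2BP2 peak was found in 12 of the 28, and 11 of these are among the 16. Without PTBP1 replicate 1 or 2 the count over all peaks fell to 8 or 9, and the share of all genes called to 14.97% or 16.3%.

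Among 17 transport motors tested, PTBP1 was higher for 6 and IGF2BP2 for 4, while 7 did not pass, and the median difference was 0.42. The clearest was KIF16B, which carries early endosomes. It had 111 and 97 PTBP1 peaks and 18 and 15 IGF2BP2 peaks, a log2 difference in density of 1.93 ± 0.16 (SE, limma adjusted p = 0.00145). Both PTBP1 libraries stood far above both IGF2BP2 libraries, and the call held when each of the 4 libraries was left out. KIF1A, a carrier of synaptic vesicle precursors, had 69 and 83 against 21 and 22 (1.10 ± 0.19, limma adjusted p = 0.00891). KIF21B, a kinesin-4 motor that limits microtubule growth, had 50 and 39 against 12 and 14 (1.04 ± 0.22, limma adjusted p = 0.0167). KIF13B, a vesicle motor, had 68 and 65 against 19 and 26 (0.87 ± 0.21). In these motors too the groups did not overlap, which sets them little apart. Of the 37 kinesins tested, 16 had both PTBP1 densities above both IGF2BP2 densities and 14 the reverse, many of which did not pass. The same count was not made over all genes, so these numbers have no background. KIF5C (0.86 ± 0.14) and KIF13A (0.55 ± 0.13) completed the 6. For the related KIF5A and KIF5B the differences were 0.98 ± 0.40 and -0.38 ± 0.23 and did not pass.

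The 4 transport motors on the IGF2BP2 side had about as many peaks of either protein, which in the shorter IGF2BP2 lists is a larger share. KIF3C had 62 and 49 PTBP1 peaks and 62 and 69 IGF2BP2 peaks (-0.94 ± 0.15, limma adjusted p = 0.00635). KIF3B had 32 and 30 against 29 and 31 (-0.65 ± 0.18, limma adjusted p = 0.0410). KIF1C (-0.49 ± 0.12) and KIFC3 (-0.44 ± 0.11) differed less. Among peaks of at least 10 IP reads KIF3C was at 0.05 and KIFC3 turned to 1.12 (limma adjusted p = 0.0151), beside the median of 0.65 over all genes there. KIF3A, the partner of KIF3B, was at 0.42 ± 0.25 and did not pass.

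Among 13 mitotic kinesins tested, PTBP1 was higher for 3 and IGF2BP2 for 2, while 8 did not pass, and the median difference was 0.11. KIF4A, a chromokinesin that organizes the central spindle, had 77 and 63 PTBP1 peaks and 17 and 16 IGF2BP2 peaks (1.35 ± 0.17, limma adjusted p = 0.00304). KIF23, the motor of the centralspindlin complex of cytokinesis, had 14 and 23 against 2 and 4 (1.77 ± 0.51, limma adjusted p = 0.0433), and it reached the minimum of 10 peaks through PTBP1. KIF15 had 39 and 36 against 12 and 9 (1.11 ± 0.23). These 3 held at least 3 PTBP1 peaks for each IGF2BP2 peak in every pairing of libraries. On the other side, KIF18B, which shortens astral microtubules, had 36 and 38 PTBP1 peaks and 52 and 47 IGF2BP2 peaks (-1.11 ± 0.16, limma adjusted p = 0.00466). KIFC1, the minus-end motor that focuses spindle poles, had 19 and 18 against 25 and 23 (-1.06 ± 0.21), and it was at 0.29 among peaks of at least 10 IP reads, below the median of all genes there. KIF11, the target of spindle drugs known as Eg5, was at 0.10 ± 0.29 and KIF2C, a microtubule depolymerase, at 0.11 ± 0.26.

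None of the 5 ciliary kinesins tested passed by limma, and with 25.0% of all genes called, none of 5 is no finding. Their differences ran from -0.54 to 0.67, and KIF7, a regulator of Hedgehog signalling at the tip of cilia, had 53 and 47 PTBP1 peaks and 37 and 30 IGF2BP2 peaks (-0.12 ± 0.16). Of the remaining kinesins, KIF26B was higher in PTBP1 (0.75 ± 0.14, limma adjusted p = 0.0118), but was at -0.57 among peaks of at least 10 IP reads. KIF26A, its nearest relative, was at -0.66 ± 0.20 and did not pass (limma adjusted p = 0.0508).

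**Figure D3:**
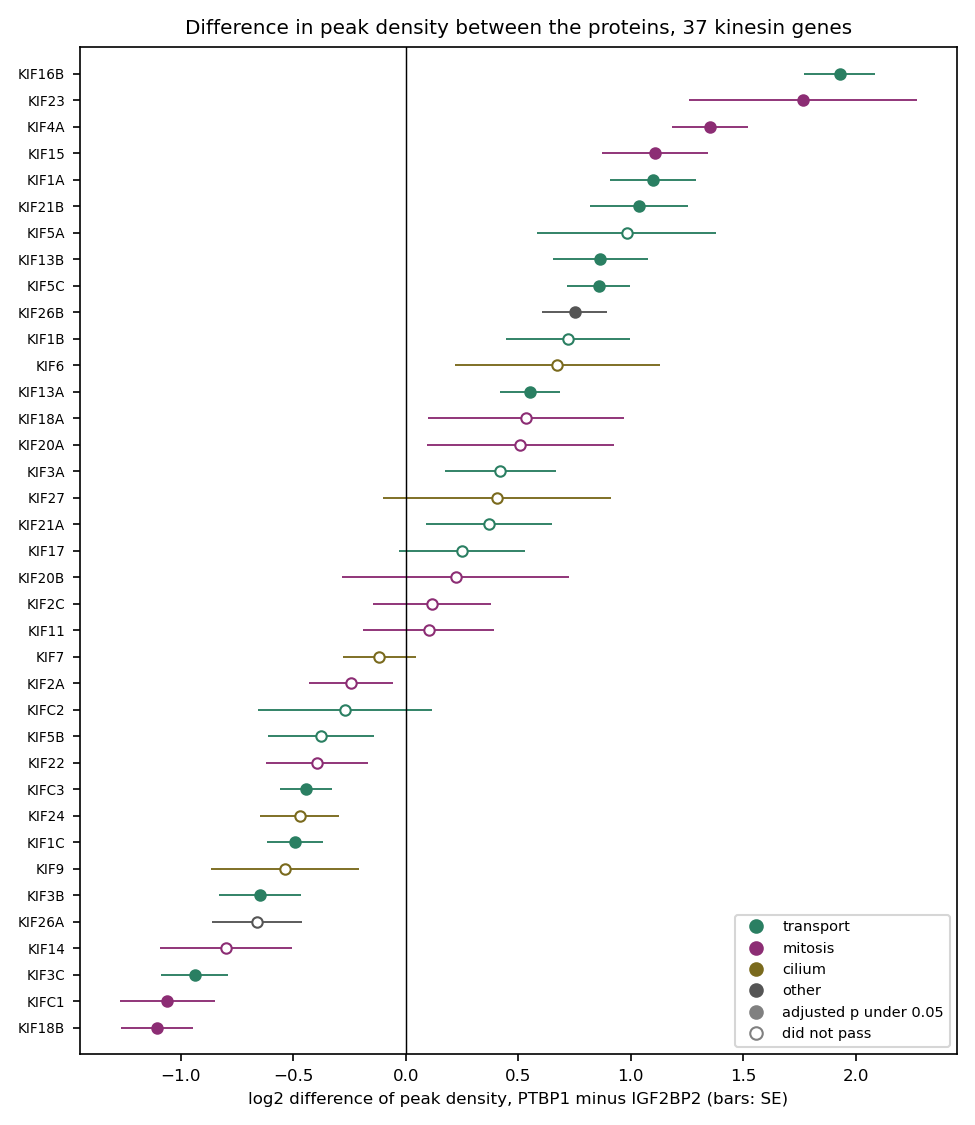
Log2 difference in peak density, PTBP1 minus IGF2BP2, for the 37 kinesins tested, with SE as bars, colours for known roles and filled points for limma adjusted p under 0.05. The 10 filled points to the right are led by KIF16B at 1.93 and the 6 to the left by KIF18B at -1.11. No ciliary kinesin is filled, of only 5 tested.

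Counting coding-sequence or intron peaks alone, a choice made after seeing the data, separated these differences. These fits divide by the coding-sequence or intron peaks of the list in place of all its peaks. With coding-sequence peaks 7 of 28 kinesins passed, all higher in PTBP1, and all 7 had under 10 such peaks in IGF2BP2 and reached the minimum of 10 through PTBP1, 5 of them with none in IGF2BP2, so the filter bears on their direction. Of all 6008 genes tested there 18.6% were called, 10.2% higher in PTBP1 and 8.42% higher in IGF2BP2. They were KIF5A, KIF3A, KIF15, KIF17, KIF23, KIF16B and KIF1A. KIF16B had 15 and 14 coding-sequence peaks against 2 and 1 (1.72 ± 0.39, limma adjusted p = 0.0440), and KIF1A 24 and 23 against 4 and 2. KIF17, a kinesin-2 motor, had 9 and 5, and KIF23 had 3 and 7, with none in IGF2BP2. With intron peaks 12 of 35 passed, 6 in each direction, where 25.8% of all genes were called, 12.7% higher in PTBP1 and 13.0% higher in IGF2BP2. KIF18B had 6 and 12 intron peaks in PTBP1 against 34 and 24 in IGF2BP2 (-2.37 ± 0.41, limma adjusted p = 0.00730). KIFC1 had 3 and 4 against 14 and 14, and KIF1C 18 and 22 against 39 and 37. In coding sequence alone KIF18B had 28 and 24 PTBP1 peaks against 12 and 15 (-0.31) and KIF1C 51 and 45 against 14 and 14 (0.51), and neither passed. Against all peaks of the lists these differences would be 0.23 and 1.05, so the sign for KIF18B rests on the divisor. KIF16B, KIF4A, KIF13B, KIF1A, KIF5C and KIF26B had more PTBP1 density in introns.

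The strongest sites were sought among regions that join overlapping peaks of both replicates. A peak counted as enriched when its log2 ratio of IP to input, on a common scale for all chromosomes of the library, and its −log10 p were both at least 3. This bar was lower for IGF2BP2, where 3 IP reads to 1 input read reached a log2 of 3, than for PTBP1, where 10 were needed (replicate 1 of each). PTBP1 had 850 such kinesin regions in 38 genes, of which 14 (1.65%) in 12 genes were enriched in both replicates, against 2.33% of the PTBP1 regions of all genes. IGF2BP2 had 376 in 38 genes, of which 11 (2.93%) in 9 genes were enriched, against 5.95% of its regions of all genes. The 14 PTBP1 regions lay in coding sequence (8) and introns (6). Of the enriched PTBP1 regions of the whole lists 30.1% lay in coding sequence, 58.2% in introns and 2.44% in 3′ UTRs, so a set of 14 can easily hold none in a 3′ UTR. The 11 IGF2BP2 regions lay in 3′ UTRs (6), introns (4) and a 5′ UTR (1). Of the enriched IGF2BP2 regions of the whole lists 26.6% lay in 3′ UTRs, 58.5% in introns and 5.66% in coding sequence, so none of 11 in coding sequence is likewise no finding. Among all genes with a region found in both replicates, 17.7% held an enriched region of PTBP1 and 27.9% of IGF2BP2. In kinesins these were 12 of 38 genes for PTBP1 and 9 of 38 for IGF2BP2, while per region kinesins lay below all genes for both. In all, 18 kinesins held an enriched region of either protein, a count not made over all genes.

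**Figure D4:**
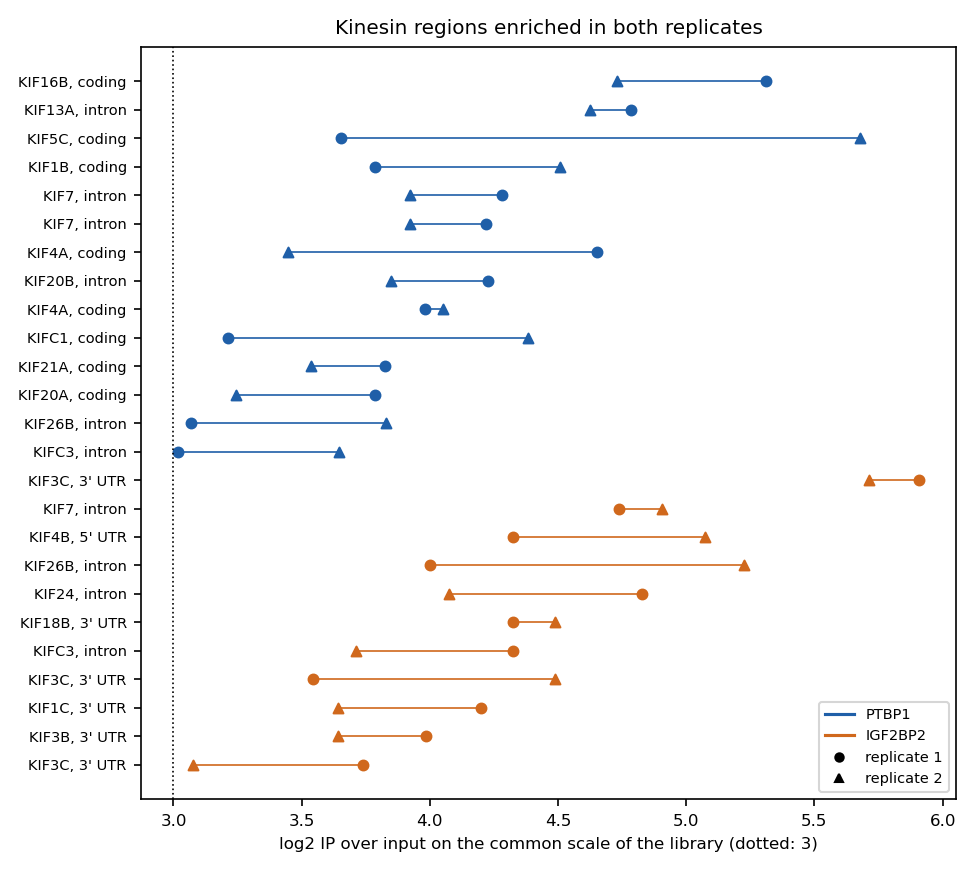
Log2 ratio of IP to input on the common scale for the 14 PTBP1 (blue) and 11 IGF2BP2 (orange) kinesin regions enriched in both replicates, with circles for replicate 1 and triangles for replicate 2. The PTBP1 regions are mostly coding and the IGF2BP2 regions mostly 3′ UTR, from KIF16B (5.31 and 4.73) and KIF3C (5.91 and 5.71) downward.

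The leading PTBP1 region lay in coding sequence of KIF16B (hg38 chromosome 20, 16379900 to 16379988, minus strand). It had 49 IP reads to 1 input read in replicate 1 and 28 to 1 in replicate 2, a log2 of 5.31 and 4.73. No IGF2BP2 peak overlapped it. The region of KIF13A lay in an intron (chromosome 6, 17980459 to 17980568, minus strand) with 34 and 26 IP reads to 1 input read. KIF5C had a coding-sequence region (chromosome 2, 148997264 to 148997341, plus strand) with 62 reads to 4 and 54 to 1, and IGF2BP2 replicate 1 had a weak peak there of 4 reads to 7. KIF1B, which carries mitochondria and vesicles, had a coding-sequence region (chromosome 1, 10297174 to 10297247, plus strand) with 17 and 24 reads to 1. These 4 are transport motors. KIF7 had a pair of overlapping intron regions on opposite strands of chromosome 15 (89630760 to 89630810 on the plus strand and 89630780 to 89630821 on the minus strand), with 24 and 16 reads to 1 on the plus strand and 23 and 16 to 1 on the minus strand. The near-equal reads leave the strand of this signal uncertain.

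The other PTBP1 regions included those of several cell division motors. KIF4A had a pair in coding sequence (log2 4.65 and 3.45, and 3.98 and 4.05). KIF20B, a motor of cytokinesis, had the most deeply covered one, in an intron, with 208 reads to 9 and 152 to 10 (4.23 and 3.85). KIFC1 (3.21 and 4.38), KIF21A (3.83 and 3.54) and KIF20A (3.78 and 3.25), which brings the chromosomal passenger complex to the midzone, had 1 each in coding sequence. KIF26B (3.07 and 3.83) and KIFC3 (3.02 and 3.65) had 1 each in introns. Of the 14, 9 had a single input read in at least 1 replicate, so the size of their ratio is loosely fixed.

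The leading IGF2BP2 region lay in the 3′ UTR of KIF3C (chromosome 2, 25928649 to 25928698, minus strand). It had 18 and 14 IP reads to 1 input read, a log2 of 5.91 and 5.71, and no PTBP1 peak overlapped it. A pair of further enriched regions flanked it (log2 3.55 and 4.49, and 3.74 and 3.07), so that all 3 lay within 241 nt (25928532 to 25928772). KIF3C was thus the kinesin with the most enriched IGF2BP2 regions. KIF7 had an intron region (chromosome 15, 89644639 to 89644673, minus strand) with 8 reads to 1 in both replicates. KIF4B had a 5′ UTR region (chromosome 5, 155013763 to 155013794, plus strand) with 6 and 9 reads to 1, which holds the stretch printed above. KIF4B is an intronless near-copy of KIF4A, and reads of the one could have been placed on the other.

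KIF26B had an IGF2BP2 region in an intron (chromosome 1, 245688859 to 245688899, plus strand) with 24 reads to 5 and 10 to 1, and PTBP1 replicate 1 had a peak of 17 reads to 1 there. KIF24, which controls the disassembly of cilia, had an intron region (chromosome 9, 34270651 to 34270676, minus strand) with 17 reads to 2 and 18 to 4. KIF18B had a 3′ UTR region (chromosome 17, 44925653 to 44925691, minus strand) with 6 reads to 1 in both replicates. KIF1C (4.20 and 3.64) and KIF3B (3.99 and 3.64) had 1 each in their 3′ UTRs. Of the 6 kinesins with density higher in IGF2BP2, KIF3C, KIF3B, KIF1C and KIF18B thus also had an enriched 3′ UTR region of it. These share the same libraries and peaks with the density and are no independent support. Of the 11 regions, 7 had a single input read in at least 1 replicate, and none had over 24 IP reads.

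Of the 850 PTBP1 regions of kinesins, 108 (12.7%) touched an IGF2BP2 region, beside 19.9% of all 303982 PTBP1 regions. Of the 376 IGF2BP2 regions, 107 (28.5%) touched a PTBP1 region, beside 39.6% of all 159702. These gaps were not tested. KIF7, KIF26B and KIFC3 had enriched regions of both. Only in the KIFC3 intron did enriched regions of both overlap, over 32 nt (chromosome 16, 57786105 to 57786136, minus strand). PTBP1 had 90 reads to 9 and 66 to 5 there, and IGF2BP2 had 6 to 1 and 14 to 4.

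**Figure D5:**
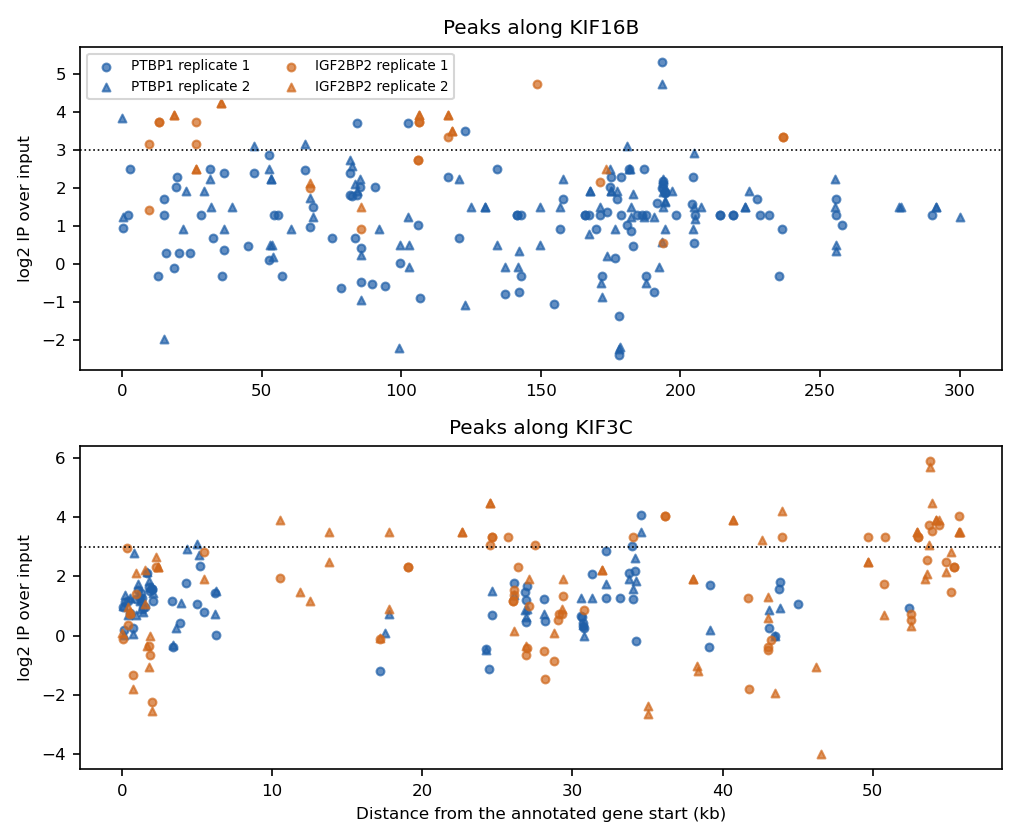
Log2 ratio of IP to input of each peak (on the common scale) against its distance from the annotated gene start in kb, for KIF16B and KIF3C, with blue for PTBP1, orange for IGF2BP2 and a dotted line at 3. The KIF16B coding-sequence site stands near 193.5 kb in both PTBP1 replicates (5.31 and 4.73), and the KIF3C 3′ UTR site near 53.8 kb in both IGF2BP2 replicates (5.91 and 5.71).

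The share of single kinesin peaks that were enriched was read beside that of all genes in the same transcript region. In PTBP1, 7.36% (95% Wilson interval 5.36% to 10%) and 4.47% (2.94% to 6.73%) of the coding-sequence peaks of kinesins were enriched, beside 5.93% and 5.54% for all genes. Of their intron peaks 1.32% and 1.23% were, beside 2.45% and 2.40%. In PTBP1 none of 51 and 45 3′ UTR peaks was enriched. The Wilson intervals reach 7.0% and 7.87%, so this does not set kinesins apart from all genes (2.22% and 2.16%). In IGF2BP2, 12.0% (6.68% to 20.8%) and 17.5% (10.7% to 27.3%) of the 3′ UTR peaks were enriched, and 20.9% in both lists for all genes. Its coding-sequence peaks were enriched in 2 of 134 and in 0 of 125 (Wilson interval of the latter up to 2.98%), beside 5.35% and 5.798% for all genes. Most of its enriched kinesin peaks, 48 of 61 and 37 of 52, lay in introns, where 7.11% and 5.44% were enriched, beside 8.69% and 8.82% for all genes. Over all regions, 2.90% and 2.16% of the kinesin peaks of PTBP1 were enriched, beside 2.94% and 2.84% of all its peaks. For IGF2BP2 the shares were 6.62% and 5.65%, beside 9.20% and 9.36%.

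Part of the kinesin peaks lay on the strand opposite to the gene. These were 134 and 113 peaks in the PTBP1 lists (7.46% and 6.98%) and 59 and 53 in the IGF2BP2 lists (6.40% and 5.76%). KIF2C had 48 opposite-strand peaks of 111 and KIF7 had 42 of 167. Peaks with an overlapping partner on the other strand numbered 168, 163, 89 and 68 in the 4 lists, and in 66, 73, 56 and 46 of these both had the same log2 and p. With sense-strand peaks alone 16 kinesins passed in density by limma, 9 higher in PTBP1 and 7 in IGF2BP2, beside 10 and 6 over both strands. There 26.0% of all genes were called, 13.1% and 13.0% by direction. KIF13B, with 35 opposite-strand peaks of 178, was at 0.62 on the sense strand and did not pass (limma adjusted p = 0.0799).

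Partners of the kinesins showed no common direction. Over all genes tested, 12.7% were called higher in PTBP1 and 12.3% higher in IGF2BP2. Of 17 genes for light chains, accessory subunits and cargo adaptors, PTBP1 was higher for 3 and IGF2BP2 for 2, while 12 did not pass, and the median difference was 0.09. TRAK2, which links kinesin to mitochondria, had 47 and 36 PTBP1 peaks and 12 and 11 IGF2BP2 peaks (1.10 ± 0.22, limma adjusted p = 0.0127). MAPK8IP3, a scaffold that ties kinesin to its cargo, had 108 and 88 against 127 and 125 (-1.06 ± 0.11, limma adjusted p = 0.00175), and SYBU, which links syntaxin vesicles to kinesin, was at 1.06 ± 0.32. Of 22 genes tested for cytoplasmic dynein and its regulators, which move cargo the other way, PTBP1 was higher for 3 and IGF2BP2 for 5, while 14 did not pass, and the median difference was -0.00. DYNC1I1, an intermediate chain, was at 2.14 ± 0.49, DCTN2, a dynactin subunit, at 1.03 ± 0.30 and DYNLL1, a light chain, at -0.85 ± 0.23.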

How the data were processed

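The authors deposited 1 peak list per IP library, and these 4 lists were used. HISAT2 and hg38 are named in the submitters' processing notes. Peak caller and annotation: not given in the sources used here. Per the file headers, each peak has a position, strand, gene, transcript region and overlap length. The authors deposited a −log10 p per peak, limited at 400. The deposited column headed as a count holds log2 values, which are log2 ratios of whole IP to whole input reads shifted by a chromosome-specific constant. The values, not a source, identify the input as divisor.

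Duplicate lines, up to 55 in a list, were dropped. Reads were recovered where both deposited values matched an exact binomial or a chi-square test within 0.1% of the −log10 p. Peaks with a negative log2, or a −log10 p at 0 or 400, were not tried. Of the other kinesin peaks 98.6% to 99.6% gave reads, which is 76.1% to 86.6% of all kinesin peaks. The chromosomes of a library were put on a common scale by the median of their constants, -0.30 and -0.08 for the PTBP1 replicates and 1.74 and 1.90 for those of IGF2BP2. Recovery was tested on simulated data.

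limma 3.58.1 with a trend, in R 4.3.3, tested density on every gene with at least 10 peaks, Benjamini-Hochberg adjusted over 15145 genes at 0.05. The pseudocount of 0.5 shrinks genes with few peaks. Named are kinesins past that threshold, with an enriched region, among the 5 with the most peaks or with no peak, and relatives set beside them. Genes named for coding-sequence, intron or low peak counts and for other-strand peaks were chosen after their values were seen. Coordinates are given for the 6 leading regions per protein and the shared KIFC3 site. Members, roles and lists were chosen with earlier results of these data known. Alternatives were another pseudocount, filter, scaling, overlap and threshold, nucleotides covered, better-covered or enriched peaks, a replicate block and leaving out each library.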

Additional observations from a re-analysis of the deposited data

How the results depend on the processing

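Among peaks of at least 10 IP reads, the PTBP1 minus IGF2BP2 differences were 0.131 points for the kinesin share of the list, 36.2 in coding sequence, -24.1 in 3′ UTRs and -4.56 in introns. With enriched peaks they were 0.0887, 63.0, -21.7 and -41.0 points. The filter at 10 IP reads also drops peaks with a negative log2 or a −log10 p of 0, so it selects on more than depth. The intron difference was -5.52 points by nucleotides covered, and the 3′ UTR difference -6.27 points on the sense strand. Leaving out each library gave 0.0303 to 0.0456, 13.2 to 14.95, -6.19 to -5.89 and -8.07 to -6.19 points. The share found again in PTBP1 was 49.4% and 53.8% with an overlap of at least 50% of the shorter peak, and 78.2% and 84.4% (77.8% and 80.0% in IGF2BP2) for at least 10 IP reads.

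With a threshold of 4, 2 PTBP1 and 4 IGF2BP2 regions were enriched, and 31 and 7 on the deposited scale. Density passed in 1 of 9 kinesins with enriched peaks, 7 with coding-sequence peaks alone and 8 to 23 without each library, where the lone library is assumed to vary like the others. It passed in 12 without the filter and in 22 by nucleotides covered, where 15.3% and 44.4% of all genes were called. The replicate block gave 18, where 31.4% of all genes were called. With enriched peaks 38.8% of all genes were called, and with coding-sequence peaks alone 18.6%. Without a PTBP1 library the share of all genes called fell, and without an IGF2BP2 library it rose. The kinesin counts without each library moved in the same directions, so their range is not particular to kinesins. Same-numbered libraries did not deviate together over the genes tested (correlation -0.0016). With few peaks in many genes, this cannot settle whether the numbers pair the libraries. Median-of-ratios scaling gave 10 kinesins higher in PTBP1 and 4 in IGF2BP2, where 24.4% of all genes were called.

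Directions turned, causes not tested, in coding sequence alone for KIF1C (0.51), KIF20A (-0.046), KIF3B (0.42), KIF7 (0.12) and KIFC3 (0.79). At 10 IP reads the sign turned for KIF24 (0.86), KIF26B (-0.57), KIF3C (0.050), KIF7 (1.97), KIFC1 (0.29) and KIFC3 (1.12). The median over all genes was 0.65 there, and KIF3C, KIFC1 and KIF26B lay below it. KIF24, KIF26B, KIF7 and KIFC1 reached the minimum of 10 such peaks through PTBP1 alone. With enriched peaks directions turned for KIF26B (-0.22) and KIFC3 (0.81), and without IGF2BP2 replicate 2 for KIF20B (-0.57, or 1.01 without replicate 1). Depth of the whole libraries is unknown, and only reads per peak are at hand.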
